A study of Mus musculus with 33 samples.

Results

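Mouse embryonic fibroblasts were driven towards pluripotency. Cells that had switched on an Oct4-GFP reporter were compared with cells that had not and still carried Thy1, a surface glycoprotein of fibroblasts. The comparison held 6 of the 33 samples of the series: 3 GFP+ libraries and 3 GFP-Thy1+SSEA1- libraries, called Thy1+ here, paired by arm and day. The pairs were the control arm on day 14, the Dppa2/4 arm on day 8 and the Dppa2/4 arm on day 14, and per-library values below are given in that order. Pairs were taken wherever both gates had a library that matched a sample, which left out day 11, whose Thy1+ cells are not analysed here.

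All 6 libraries came from cells of 1 genotype, Col1a1-OSKM+/-; Rosa26-rtTA+/-; Oct4-GFP+/-, isolated from embryos of 14 to 15 days post coitum and bred from B6;129S4 and B6.Cg lines. The alleles were Pou5f1tm2Jae for the reporter, Gt(ROSA)26Sortm1(rtTA*M2)Jae for the transactivator and Col1a1tm1(tetO-Pou5f1,-Klf4,-Sox2,-Myc)Hoch for the factors. Doxycycline at 1 µg/ml induced OSKM (Oct4, which is the product of Pou5f1, with Sox2, Klf4 and Myc) from a tetO cassette in the Col1a1 locus, and both arms received it in medium with 15% serum and ESGRO, a preparation of leukaemia inhibitory factor. One arm overexpressed Dppa2 and Dppa4 from lentivirus, and the other was its control overexpression. The labels give 1 library per arm, day and gate and name no separate cultures, so p-values measure only the spread between these libraries. GFP-Thy1-SSEA1+ cells of the same arms and days, called SSEA1+ here, served as the intermediate gate (3 libraries).

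Reprogramming of fibroblasts passes through ordered changes. Cells first lose the surface antigen Thy1 and the transcripts of the mesenchyme, then gain the carbohydrate antigen SSEA1 and epithelial adhesion, and only late switch on the endogenous Oct4 locus and the network of transcription factors that sustain each other in embryonic stem cells. Cells that keep Thy1 under the same factors are called refractory.

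Expression was given as FPKM, fragments per kilobase of transcript scaled to the mapped total, and the depth implied by the values was 24.3 to 35.2 M fragments per library. Correlations of log2(FPKM + 1) across genes were 0.929 to 0.947 within GFP+ libraries, 0.901 to 0.915 within Thy1+ libraries and 0.696 to 0.801 between the gates. Genes are not independent replicates. Single genes of high expression were listed at 0 in single libraries: 101 of the genes tested were at 100 FPKM or more in 1 of the 6 libraries and at 0 in another, of which 4 were protein coding. An example was Eef1a1, a translation factor that every cell uses, which was listed at 0 in the control day 14 Thy1+ library and at 10187 to 13434 FPKM in the other 5. A listing at 0 is therefore given as such below.

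The gates differed across much of the transcriptome. Of 14991 genes tested, 3345 (22.3%) were higher in GFP+ cells and 4039 (26.9%) were lower, by limma with arm and day as a block at a Benjamini-Hochberg adjusted p under 0.05. Differences are given as GFP+ minus Thy1+ on the log2(FPKM + 1) scale, which understates the change of genes with low values. Their median over all genes tested was -0.04. A difference of at least 2 on that scale was passed by 625 of the higher genes (4.17% of those tested) and 1292 of the lower genes (8.62%). In 25.9% of all genes tested every GFP+ value lay above every Thy1+ value, and in 30.4% every one lay below. The call in either direction was made for 49.3%. Counts of called genes in the lists below are to be read beside the 22.3% higher and 26.9% lower of all genes. Without the control day 14 pair 2165 genes were higher, and without the Dppa2/4 day 14 pair 2197. Quantile normalization moved the median of all genes by 0.15 and turned the split into 4011 higher and 3517 lower genes.

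Libraries that the fit did not use gave the same order for most of these genes. Among them every GFP+ library was of day 11 and every Thy1+ library of day 8 or earlier, so gate and day cannot be told apart there. In the GFP+ libraries of day 11 and the Thy1+ libraries of control days 2, 4 and 8 and Dppa2/4 day 2, 2682 of the 3345 higher genes (80.2%) had both GFP+ values above all 4 Thy1+ values, against 25.7% of all genes tested. Of the 4039 lower genes, 3310 (82%) had both GFP+ values below, against 31% of all. The opposite order was rare, at 0.149% of the higher and 0.099% of the lower genes. The day 11 control GFP+ library has a description that names the SSEA1+ gate. Without it only the 1 other GFP+ value had to lie beyond all 4 Thy1+ values, an easier rule to meet. By that rule the shares were 83.4% and 84.1%, with no share of all genes tested to set beside them. The Thy1+ library labelled Dppa2/4 day 4 was kept out of that count, since its Dppa2 of 0.35 FPKM goes against its label.

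The sort markers followed the gates. Thy1 (Ensembl gene on chromosome 9, 44043384 to 44048579, GRCm38) was at 749, 244 and 278 FPKM in Thy1+ cells and 8.88, 5.74 and 4.71 in GFP+ cells, with 67.2, 10.3 and 11.9 in the SSEA1+ gate. The groups did not overlap, and the order of the gates was the same in each pair. Fut9, the fucosyltransferase that makes the SSEA1 epitope, was at 0.211, 1.02 and 1.13 FPKM in Thy1+, 5.38, 5.26 and 15.3 in SSEA1+ and 7.31, 5.16 and 8.20 in GFP+ cells. Because the sort used the Thy1 protein, SSEA1 and the Oct4 reporter, the levels of Thy1, Fut9 and Pou5f1 check the labels and are no finding. In sorted bulk cells, a lower level can mean less RNA per cell or fewer cells that carry it, and these cannot be told apart.

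**Figure D1:**
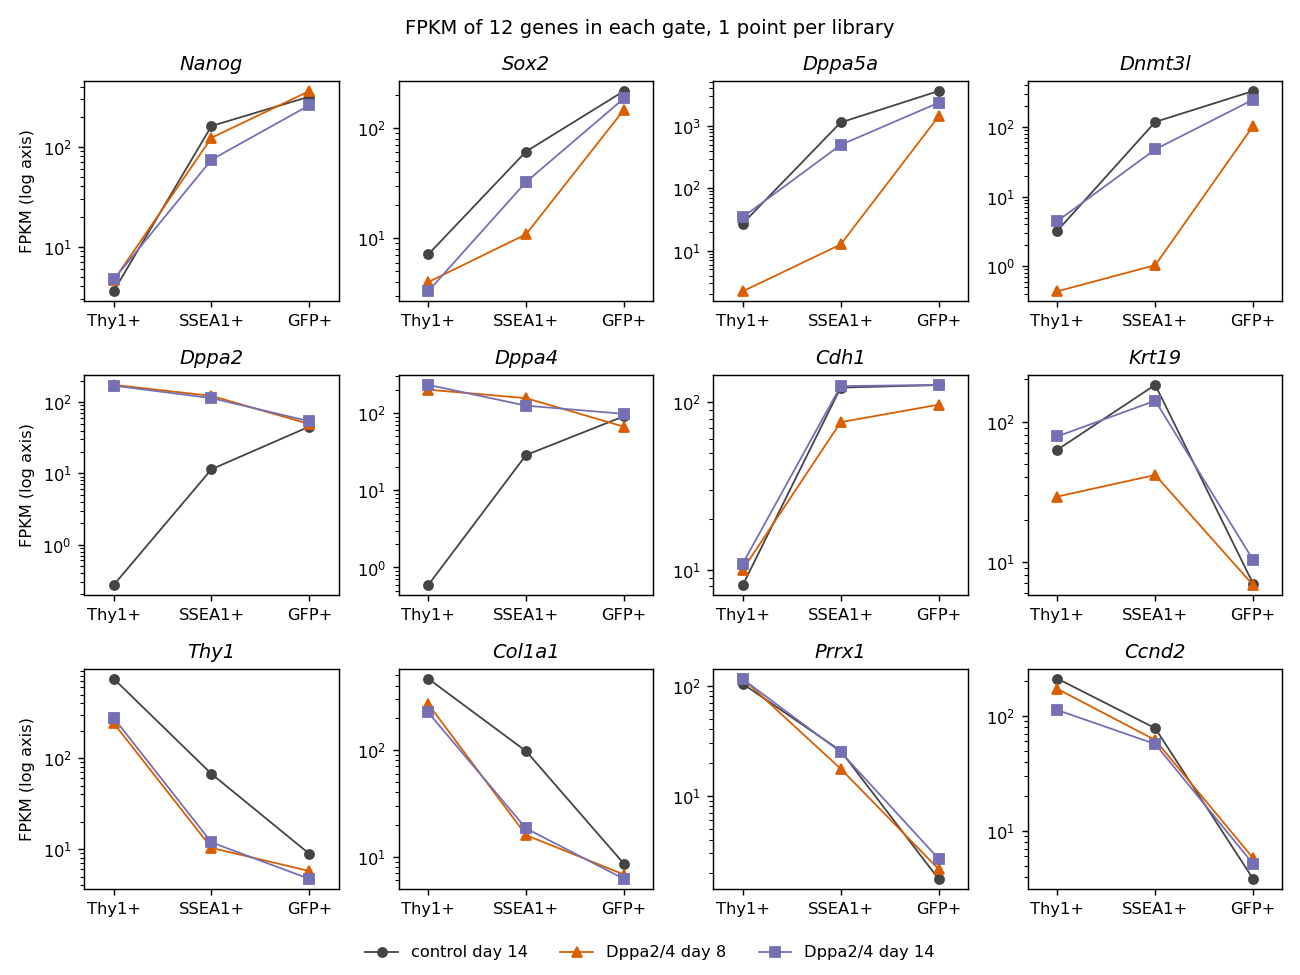
FPKM (log axis) of 12 genes in the Thy1+, SSEA1+ and GFP+ gates, with 1 point per library and lines joining the 3 gates of an arm and day. Nanog, Sox2, Dppa5a and Dnmt3l lie highest in GFP+ cells in each of the 3 sets, Thy1, Col1a1, Prrx1 and Ccnd2 lowest, Krt19 peaks in SSEA1+ cells, and Dppa2 and Dppa4 run in opposite directions in the control and Dppa2/4 arms.

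The reprogramming factors differed by gate although every culture carried the same cassette. FPKM values do not separate cassette transcripts from those of the endogenous genes. Sox2, the partner of Oct4 on DNA, was at 7.12, 4.00 and 3.30 FPKM in Thy1+ and 216, 146 and 185 in GFP+ cells. The lowest GFP+ value lay 20.5-fold above the highest Thy1+ value, and the difference was 5.02 (SE 0.20, limma adjusted p = 0.000783). Pou5f1 itself was already at 213, 276 and 78.3 FPKM in Thy1+ cells and reached 1838, 1518 and 1264 in GFP+ cells. Klf4 was at 24.6, 23.3 and 9.21 FPKM in Thy1+ and 66.3, 53.6 and 47.1 in GFP+ cells, with no overlap (difference 1.60, SE 0.26, limma adjusted p = 0.00743). Myc went the other way, with 91.3, 78.9 and 35.2 FPKM in Thy1+ and 22.8, 44.3 and 11.2 in GFP+ cells. Within each pair the GFP+ value of Myc was the lower one, but the Dppa2/4 day 8 GFP+ value exceeded the Dppa2/4 day 14 Thy1+ value (difference -1.45, SE 0.26, limma adjusted p = 0.00998). That call was lost when arm and day were not a block.

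All 20 genes tested of the list of pluripotency transcription factors rose in GFP+ cells, against 22.3% of all genes, with a median difference of 4.55. The smallest difference was that of Gbx2 (1.03). Nanog (chromosome 6, 122707489 to 122714633), a homeodomain factor at the core of the network, was at 3.57, 4.58 and 4.69 FPKM in Thy1+ and 317, 360.3 and 259.8 in GFP+ cells. Thy1+ values sat close together, the lowest GFP+ value lay 55.4-fold above the highest of them, and the difference was 5.88 (SE 0.19, limma adjusted p = 0.000783). Esrrb, an orphan nuclear receptor, was at 2.20, 1.05 and 2.33 FPKM in Thy1+ and 199, 132 and 115 in GFP+ cells. Zfp42, the zinc-finger gene known as Rex1, was at 1.22, 0.368 and 1.56 FPKM in Thy1+ and 127, 78.8 and 103 in GFP+ cells. These 3 genes had the largest differences of the list, with 5.70 for Esrrb and 5.69 for Zfp42 (limma adjusted p = 0.000783 for each).

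Other members covered a wide range of levels. Mybl2, a cell cycle regulator of the Myb family, was among the most abundant, with 10.2, 13.8 and 12.7 FPKM in Thy1+ and 604, 429 and 378 in GFP+ cells. Prdm14, a zinc-finger factor of naive and germ cells, had 0.222, 0.0785 and 0.358 FPKM in Thy1+ against 40.8, 22.5 and 24.9 in GFP+ cells. Sall4, a spalt-type zinc-finger factor, had 0.720, 1.37 and 1.91 FPKM in Thy1+ and 119, 106 and 89.0 in GFP+ cells. Tfcp2l1, a grainyhead-like factor of the LIF response, had 2.01, 0.817 and 1.61 FPKM in Thy1+ and 80.4, 78.8 and 118 in GFP+ cells. In each of these genes every GFP+ value lay above every Thy1+ value. Klf2, Tbx3 and Tcl1 were lower in the Dppa2/4 day 8 GFP+ library (17.8, 30.5 and 27.9 FPKM) than in the other GFP+ libraries, and still above all Thy1+ values. Tcl1 is not itself a transcription factor.

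The Nanog promoter is shown because Oct4 and Sox2, whose levels differ most between the gates among the induced factors, are known to bind a joined Sox and Oct site there. The stretch below is RefSeq sequence of GRCm38.p6 from chr6:122707374-122707467 on the plus strand, and capitals mark the match on the reverse strand to CATTGTNATGCAAA.
Nanog promoter: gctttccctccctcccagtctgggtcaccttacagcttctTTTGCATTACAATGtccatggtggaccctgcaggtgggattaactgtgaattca
The match lies 62 to 75 bases before 1 RefSeq start site of Nanog and 138 to 151 bases before another. Both strands were searched in windows from 250 bases before to 50 after the start sites of 27025 genes. Only the base N was left free, so a joined site that differs at any other base was not counted. Nanog was the 1 gene with this motif (0.0037%). The shorter ATGCAAA, which overlaps it, was in 5.24% of genes and, of 17 pluripotency and OSKM factors with a promoter in the table, in 3 (Sox2, Nanog and Zfp42). A match describes the letters and not binding.

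Downstream genes of pluripotency rose as well: 17 of 20 effectors tested passed the test, all higher in GFP+ cells, with a median difference of 3.25. Dppa5a, an RNA-binding protein of stem cells, was at 27.3, 2.23 and 34.6 FPKM in Thy1+ and 3639.7, 1422 and 2360.3 in GFP+ cells (difference 7.28, SE 0.53, limma adjusted p = 0.00145). Tdgf1, the Nodal co-receptor known as Cripto, was at 6.31, 2.96 and 8.15 FPKM in Thy1+ and 986, 838 and 796 in GFP+ cells (difference 7.08, SE 0.27). The closest values of the gates were 41.1-fold apart for Dppa5a and 97.7-fold apart for Tdgf1. Dppa3, a maternal factor that shields methylated DNA, had 1.01, 0.254 and 0.993 FPKM in Thy1+ against 104, 103 and 53 in GFP+ cells. Fgf4, a growth factor under Oct4 and Sox2, had 5.54, 9.41 and 5.73 FPKM in Thy1+ and 196, 94.3 and 164 in GFP+ cells. Lin28a, which blocks let-7 maturation, had 0.644, 0.0655 and 0.478 FPKM in Thy1+ and 96.7, 32.0 and 44.8 in GFP+ cells. Of the Nodal group, the ligand gene Nodal rose by 3.24 and its inhibitor Lefty2 by 3.75. The related inhibitor Lefty1 did not pass, at 6.13, 10.7 and 9.20 FPKM in Thy1+ and 7.89, 30.8 and 6.75 in GFP+ cells, which overlap.

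Dppa2 and Dppa4, small DNA-binding proteins encoded side by side on chromosome 16, did not pass the test, and the arms went opposite ways. Dppa2 (chromosome 16, 48303908 to 48319723) was at 0.271, 175 and 171 FPKM in Thy1+ cells and 45.4, 49.3 and 54.0 in GFP+ cells. Dppa4 (chromosome 16, 48283733 to 48294237) was at 0.591, 201 and 232 FPKM in Thy1+ and 91.1, 66.7 and 97.8 in GFP+ cells. In the control arm both genes were under 1 FPKM in Thy1+ cells and far higher in GFP+ cells. In the Dppa2/4 arm the Thy1+ cells held the higher level, and GFP+ cells of both arms came to similar levels. Without the control day 14 pair both genes were called lower in GFP+ cells. The gate difference was smaller in the Dppa2/4 arm by 6.92 for Dppa2 and by 7.26 for Dppa4, with a limma adjusted p of 0.0608 for each in the interaction of gate with arm. That p was 0.0266 with a pseudocount of 0.1, 0.0496 with quantile normalization and 0.145 among genes with a mean of at least 5 FPKM. Among the 14187 genes above 0 in all 6 libraries, a restriction chosen after seeing the data, the gate difference was again smaller by 6.92 and 7.26. The Dppa2/4 arm overexpressed both genes by design, and FPKM values do not separate lentiviral transcripts from those of the endogenous genes. The interaction at these 2 genes therefore checks the labels and is no finding.

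Among the 8 genes with the largest higher values by the naming rule were 4 hairpin genes of the miR-290 to miR-295 cluster on chromosome 7, whose mature products repress cell cycle inhibitors and differentiation genes in embryonic stem cells. The mature 3p sequences are shown to compare their seeds, the stretch that pairs with targets. They are RefSeq sequences (GRCm38.p6), written 5′ to 3′ with bases 2 to 8, the seed, in capitals. The 3p product of miR-292 is named only.
miR-290a-3p: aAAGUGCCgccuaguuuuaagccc
miR-291a-3p: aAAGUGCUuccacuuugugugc
miR-291b-3p: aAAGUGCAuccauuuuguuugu
miR-293-3p: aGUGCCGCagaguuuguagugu
miR-294-3p: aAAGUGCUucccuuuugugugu
miR-295-3p: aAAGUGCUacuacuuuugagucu
The seed AAGUGCU was shared by miR-291a-3p, miR-294-3p and miR-295-3p. Of 1738 mature mouse sequences in the table, 5 carried it, the other 2 being miR-302b-3p and miR-302d-3p. Seeds of miR-290a-3p (AAGUGCC) and miR-291b-3p (AAGUGCA) differed from it in the last base.

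The FPKM values of this cluster count reads of polyA RNA that fall on hairpins of 69 to 84 bases, not mature miRNA, and values of genes so short rest on few fragments. Mir293 was listed at 0 in all 3 Thy1+ libraries and at 1109, 555 and 1496 FPKM in GFP+ cells. Mir292 was listed at 0 in the same libraries and at 194, 88.4 and 546 in GFP+ cells. Mir291b (190.0, 54.0 and 66.7 FPKM in GFP+) and Mir291a (38.9, 88.4 and 164) were also listed at 0 in all Thy1+ libraries. The 4 Thy1+ libraries outside the fit listed these 4 genes at 0 too, while in the day 11 GFP+ libraries of the control and Dppa2/4 arms Mir293 was at 626 and 1249.9 FPKM and Mir292 at 449 and 365. In the same libraries Mir291a was at 199 and 0 FPKM and Mir291b at 0 and 127. Mir295, chosen after its values were seen like the rest of the cluster, had 207, 0 and 145 FPKM in Thy1+ and 3005, 1586 and 2564 in GFP+ cells (difference 6.21, SE 1.41, limma adjusted p = 0.02). Mir294 (limma adjusted p = 0.0531) and Mir290 (limma adjusted p = 0.285) did not pass, and Mir290 was listed at 0 in both Dppa2/4 GFP+ libraries. In SSEA1+ cells Mir295 was at 4004, 0 and 1466 FPKM and Mir293 at 1089, 141 and 653, with the Dppa2/4 day 8 library lowest for both. Mir290 (71.7, 0 and 0 FPKM) and Mir291a (191, 0 and 0) were listed at 0 in both Dppa2/4 SSEA1+ libraries, and Mir294 was at 236, 0 and 36.0.

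**Figure D2:**
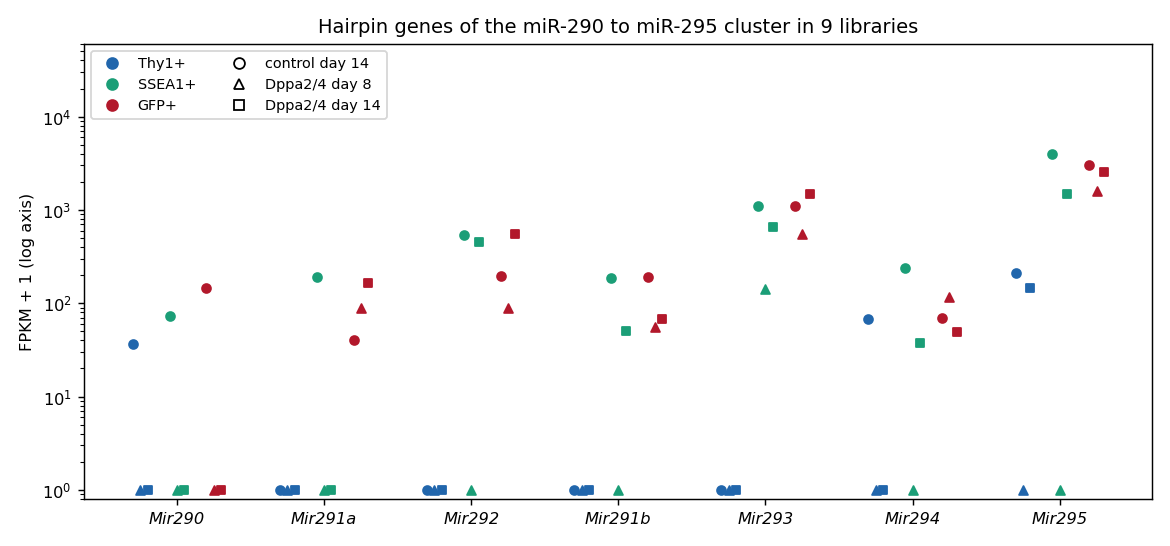
FPKM + 1 (log axis) of 7 hairpin genes of the miR-290 to miR-295 cluster in 9 libraries, coloured by gate and shaped by arm and day. Points at 1 are genes listed at 0, and for Mir291a, Mir292, Mir291b and Mir293 these include all 3 Thy1+ libraries.

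Genes of the primed state, which follows the naive one at implantation, were mostly low. Of 8 listed, 3 passed the filter on low values (FPKM of at least 1 in at least 2 of the 6 libraries). Otx2, a homeodomain factor of early epiblast, rose from 0.904, 0.0594 and 0.595 to 81.9, 25.3 and 22.1 FPKM, and Zic2 from 0.564, 2.45 and 2.08 to 19.2, 16.6 and 15.5. Fgf5 stayed under 1 FPKM in all 6 libraries and T (brachyury) was above 1 FPKM in 1 of them, the Dppa2/4 day 8 GFP+ library at 1.58.

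Germline genes rose in part. Of 22 listed, 15 were tested, and 11 rose, with a median difference of 2.11. Tex19.1, which restrains retrotransposons, was at 0.328, 10.2 and 8.99 FPKM in Thy1+ and 45.7, 40.1 and 48.8 in GFP+ cells. Stag3, a meiotic cohesin subunit, was at 2.59, 4.70 and 4.66 FPKM in Thy1+ and 42.9, 10.2 and 70.9 in GFP+ cells. Piwil2, a piRNA-binding protein, was at 0.167, 1.49 and 1.29 FPKM in Thy1+ and 10.4, 8.62 and 15.7 in GFP+ cells. The Thy1+ cells of the Dppa2/4 arm held more Tex19.1 and Piwil2 than those of the control arm, and all GFP+ values stayed above them. Of the germline genes tested, Ddx4, Taf7l, Sycp3 and Tdrd1 did not pass. Tdrd1, a tudor protein of the piRNA pathway, was at 0.202, 5.50 and 6.39 FPKM in Thy1+ and 0.290, 0.619 and 0.610 in GFP+ cells, so both Dppa2/4 Thy1+ libraries exceeded every GFP+ library. With a filter at a mean of 5 FPKM, 4 germline genes were called. None of the 9 2-cell-like genes in the table passed the filter, and their summed level was at most 2.41 FPKM in Thy1+ and 10.6 in GFP+ libraries, the latter on Dppa2/4 day 14.

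Enzymes that write and erase DNA methylation changed almost as a set: 8 of 9 rose and 1 fell, with a median of 2.41. Dnmt3l, the catalytically inactive partner of the de novo methyltransferases, was at 3.22, 0.435 and 4.45 FPKM in Thy1+ and 329, 103 and 247 in GFP+ cells (difference 6.0, SE 0.22, limma adjusted p = 0.000783). Tet1, a 5-methylcytosine dioxygenase, was at 0.884, 1.47 and 1.00 FPKM in Thy1+ and 31.1, 43.3 and 56.3 in GFP+ cells (difference 4.37). Dnmt3b, a de novo methyltransferase, was at 0.797, 2.49 and 1.29 FPKM in Thy1+ and 34.6, 56.4 and 28.7 in GFP+ cells. The gates did not overlap for any of these. Within the Tet family the members went apart. Tet2 rose by 2.41, whereas Tet3 fell by 1.39, from 2.70, 5.50 and 2.09 to 0.507, 0.675 and 0.652 FPKM. The fall of Tet3 was not called when every gene was tested without a filter on low values.

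Chromatin modifiers gave 20 higher and 3 lower genes of 29 tested (median 1.13). Subunits of Polycomb repressive complex 2, which methylates histone H3 at lysine 27, rose: Ezh2 by 2.39, Eed by 2.18, Suz12 by 1.84, Mtf2 by 3.37 and Jarid2 by 3.32. For Jarid2 the values were 5.44, 17.9 and 9.04 FPKM in Thy1+ and 82.6, 120.1 and 119.7 in GFP+ cells. Of the chromobox subunits of the other Polycomb complex, Cbx7 rose by 2.46 and Cbx2 did not pass. The BAF remodelling complex also split by paralog. Smarca2, the ATPase of differentiated cells, fell from 74.4, 86.4 and 69.0 to 2.20, 5.09 and 3.52 FPKM (difference -4.12, SE 0.22, limma adjusted p = 0.000906). Its paralog Smarca4 did not pass, at 27.3, 34.8 and 30.3 FPKM in Thy1+ and 53.9, 46.7 and 40.5 in GFP+ cells, although the groups did not overlap. Smarcc1 rose by 1.68 and its paralog Smarcc2 fell by 1.77. Hells, a helicase needed for DNA methylation, rose from 8.01, 68.1 and 36.9 to 131, 237 and 261 FPKM. Its lowest Thy1+ value was the control one.

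Cell cycle genes were higher in GFP+ cells: 19 of 25 rose and 2 fell, with a median of 1.61. Bub1, a spindle checkpoint kinase, was at 4.51, 18.1 and 8.02 FPKM in Thy1+ and 57.9, 68.4 and 94.7 in GFP+ cells. All 6 Mcm genes, subunits of the replicative helicase, rose, by 1.55 (Mcm6) to 2.56 (Mcm3). Ccnb1, the mitotic cyclin B1, was at 17.3, 58.8 and 18.0 FPKM in Thy1+ and 143, 192 and 158 in GFP+ cells. The Dppa2/4 day 8 Thy1+ library was the highest of its gate for all of these. The 2 that fell were D cyclins, which couple growth signals to the cycle. Ccnd2 was at 211, 172 and 113 FPKM in Thy1+ and 3.83, 5.80 and 5.17 in GFP+ cells (difference -4.78, SE 0.28, limma adjusted p = 0.00102). Ccnd1 was at 233, 272 and 214 FPKM in Thy1+ and 12.6, 19.2 and 10.3 in GFP+ cells (difference -4.04). Ccnd3 did not pass, and neither did Mki67, the proliferation antigen Ki-67, at 9.64, 39.5 and 17.0 FPKM in Thy1+ and 18.9, 42.2 and 31.7 in GFP+ cells, which overlap.

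Genes of the p53 pathway and of cyclin-dependent kinase inhibitors were mixed: of 18, 7 fell, 3 rose and 8 did not pass, with a median of -0.20, against 26.9% lower and 22.3% higher of all genes. Cdkn2b, which encodes p15, was at 110.3, 47.9 and 91.1 FPKM in Thy1+ and 3.95, 3.92 and 6.54 in GFP+ cells (difference -3.81, SE 0.28, limma adjusted p = 0.00145). Cdkn2a, the neighbouring locus of p16 and p19, was at 216, 25.6 and 85.8 FPKM in Thy1+ and 18.0, 11.9 and 7.90 in GFP+ cells (difference -2.61, SE 0.52, limma adjusted p = 0.0138). For Cdkn2a the control Thy1+ library was the highest, and the Dppa2/4 day 8 Thy1+ library lay closest to the GFP+ ones. Cdkn1a, the p53 target p21, fell from 447, 321 and 461 to 94.4, 69.4 and 132 FPKM. Trp53 itself rose, from 82.0, 87.7 and 44.2 to 256, 233 and 149 FPKM. The p53 targets Mdm2, Bax and Bbc3 did not pass. Lmnb1, the lamin lost in senescent cells, rose by 2.91.

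Of 16 one-carbon genes, 12 rose, with a median of 1.5. Gldc, the glycine decarboxylase, was at 0.856, 3.14 and 3.29 FPKM in Thy1+ and 92.9, 45.9 and 65.3 in GFP+ cells (difference 4.37, SE 0.45, limma adjusted p = 0.0027). Amt, its partner in the glycine cleavage system, was at 4.16, 14.8 and 19.4 FPKM in Thy1+ and 110.3, 93.8 and 76.3 in GFP+ cells. The control Thy1+ library was lowest for both. Of 19 glycolysis genes, 6 rose and 1 fell, with a median of 0.54. The glucose transporter Slc2a3 was the exception in size, with 171, 217 and 221 FPKM in Thy1+ and 1679, 1493 and 2071 in GFP+ cells (difference 3.10). The abundant enzymes Gapdh, Pkm and Ldha did not pass, and their gates overlapped. Without the control day 14 pair 3 glycolysis genes rose and 0 were called lower. Of 17 respiratory chain genes, 5 rose, with a median of 0.44, with 3 without the control day 14 pair and 9 in the fit of 9 libraries. Both shares are read against the 22.3% of all genes that rose.

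**Figure D3:**
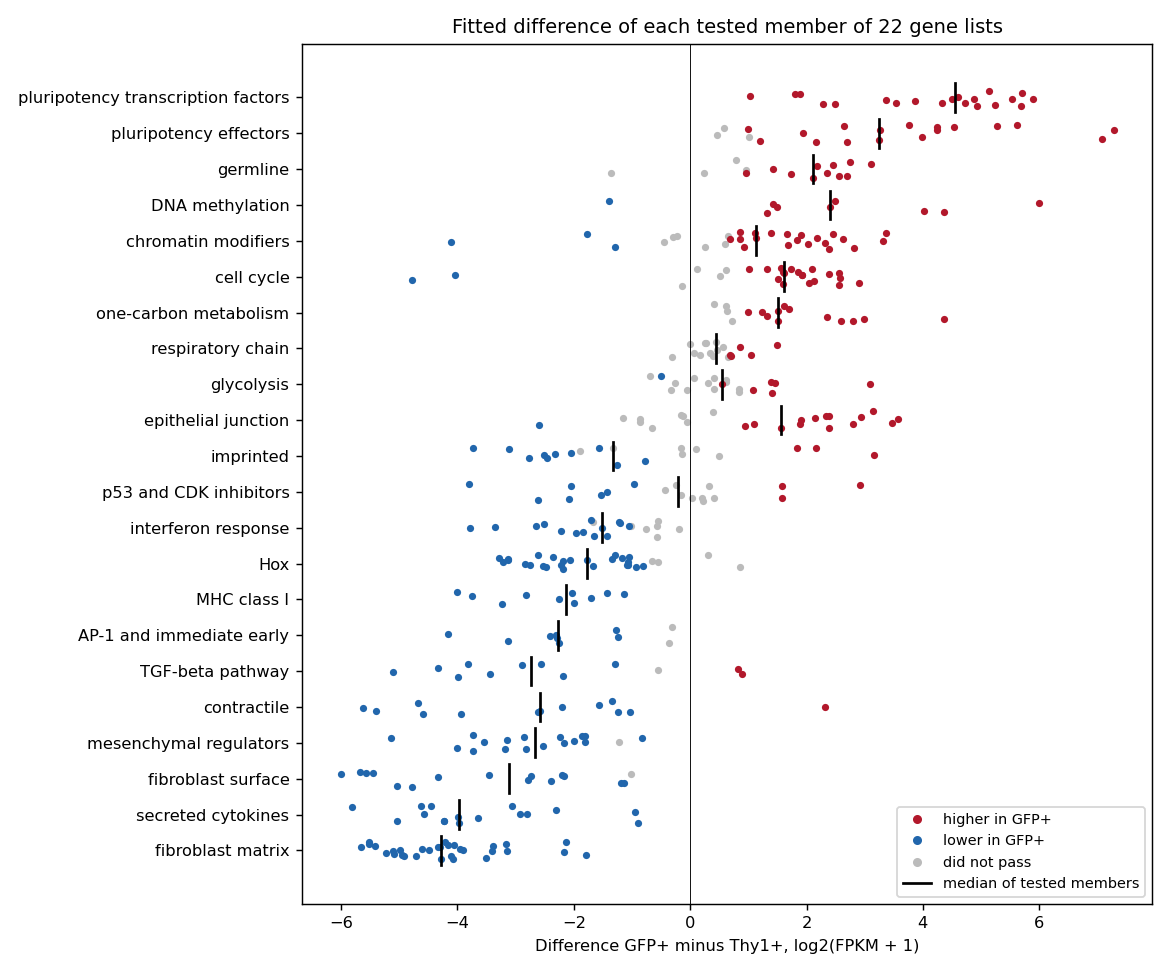
Fitted differences, GFP+ minus Thy1+ on the log2(FPKM + 1) scale, of each tested member of 22 gene lists, 1 point per gene, coloured by whether limma called it higher or lower in GFP+ cells, with a black bar at the list median. Medians run from 4.55 for the pluripotency transcription factors to -4.28 for the fibroblast matrix.

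The fibroblast programme was lower in GFP+ cells throughout. All 31 matrix genes tested of 32 listed fell, against 26.9% of all genes, with a median of -4.28. Col1a2, a chain of type I collagen, was at 739, 349.9 and 283 FPKM in Thy1+ and 9.42, 8.94 and 6.40 in GFP+ cells (difference -5.52, SE 0.25, limma adjusted p = 0.000783). Col3a1, of type III collagen, was at 375, 279.8 and 224 FPKM in Thy1+ and 4.98, 5.59 and 3.71 in GFP+ cells (difference -5.65, SE 0.18). Thbs1, the matrix glycoprotein thrombospondin 1, was at 774, 1023 and 1249 FPKM in Thy1+ and 18.0, 21.2 and 29.6 in GFP+ cells. The closest values of the gates were 26.2-fold apart for Thbs1 and further apart for both collagen genes. Col1a1, whose locus holds the OSKM cassette, was at 464, 269 and 224 FPKM in Thy1+ and 8.60, 6.82 and 6.21 in GFP+ cells. Fn1, fibronectin, fell least, from 1009, 504 and 1037 to 296, 159 and 269.8 FPKM. The summed level of the matrix list was 6210 to 10996 FPKM in Thy1+ libraries and 448 to 692 in GFP+ libraries.

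Transcription factors of mesenchyme followed. Of 18 tested, 17 fell, with a median of -2.67. Prrx1, a homeodomain factor of limb and craniofacial mesenchyme, was at 104, 116 and 114 FPKM in Thy1+ and 1.76, 2.16 and 2.69 in GFP+ cells (difference -5.14, SE 0.17, limma adjusted p = 0.000783). Its levels were alike in the 3 Thy1+ libraries. Prrx2 fell by 4.01 and Tbx15 by 3.74. Repressors of E-cadherin fell too: Snai1 by 2.17, Snai2 by 3.18, Zeb1 by 2.00, Zeb2 by 1.81 and Twist1 by 3.14. Foxf1 did not pass. It was at 0.0917, 2.49 and 3.43 FPKM in Thy1+ and 0.0316, 0.0909 and 0.187 in GFP+ cells, and its control Thy1+ value lay among the GFP+ ones. Among genes with a mean of at least 5 FPKM, 9 of this list were called lower.

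Of 16 fibroblast surface genes, 15 fell (median -3.12). Both numbers include Thy1, whose protein the sort used, so its fall is no finding. Cd34, a sialomucin of progenitors, was among the 8 lowest genes by the naming rule, at 752, 356 and 307 FPKM in Thy1+ and 6.60, 4.79 and 6.10 in GFP+ cells (difference -6.01, SE 0.26, limma adjusted p = 0.000783). Ly6a, the antigen Sca-1, was at 2099.9, 1619 and 1562 FPKM in Thy1+ and 22.1, 57.2 and 35.3 in GFP+ cells. Cd44, the hyaluronan receptor, was at 132, 161 and 139 FPKM in Thy1+ and 2.11, 4.63 and 3.88 in GFP+ cells. The gates stood far apart for each of them. Eng, the TGF-β co-receptor endoglin, did not pass, and its control values were 12.1 FPKM in Thy1+ and 13.7 in GFP+ cells.

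Ligands and receptors of TGF-β, a signal that maintains the mesenchymal state, gave 9 lower and 2 higher genes of 12 (median -2.73). Of the ligands, Tgfb3 was at 30.2, 31.0 and 35.1 FPKM in Thy1+ and 0.427, 0.737 and 0.755 in GFP+ cells. The receptor Tgfbr2 was at 34.7, 31.0 and 18.7 FPKM in Thy1+ and 0.688, 1.03 and 0.640 in GFP+ cells, and the secreted target Tgfbi at 253, 163 and 104 FPKM in Thy1+ and 3.28, 4.69 and 3.38 in GFP+ cells. Differences were -4.34 for Tgfb3, -3.99 for Tgfbr2 and -5.10 for Tgfbi. The 2 that rose were Smad7 (0.82, limma adjusted p = 0.0455) and Skil (0.89, limma adjusted p = 0.0364), both of which restrain the pathway. Neither call held without the control day 14 pair or without a filter on low values. Smad7 lost its call without the Dppa2/4 day 8 pair and Skil without the Dppa2/4 day 14 pair. With no trend, with no block and in the fit of 9 libraries, 1 gene of the list was called higher in each.

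Contractile genes, which the pathway raises in myofibroblasts, gave 12 lower and 1 higher of 13 (median -2.58). Acta2, smooth muscle actin, was at 913, 252 and 404 FPKM in Thy1+ and 9.57, 11.1 and 8.87 in GFP+ cells. Actg2 was at 643, 114 and 200.3 FPKM in Thy1+ and 4.55, 3.54 and 4.04 in GFP+ cells, and Myl9, a myosin light chain, at 185, 65.2 and 151 FPKM in Thy1+ and 4.12, 3.42 and 4.00 in GFP+ cells. The control Thy1+ library was the highest for all 3. The gene that rose was Des, the intermediate filament desmin, at 0.728, 6.39 and 12.5 FPKM in Thy1+ and 33.0, 17.3 and 33.6 in GFP+ cells. Its call was lost without the Dppa2/4 day 8 pair, with a pseudocount of 0.1 and without a filter on low values.

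Secreted factors of the fibroblast fell: 16 of 16 tested cytokines, proteases and IGF-binding proteins, with a median of -3.98, of 20 listed. Ccl7, a monocyte chemokine, was at 367, 339 and 309.6 FPKM in Thy1+ and 4.00, 6.56 and 4.73 in GFP+ cells (difference -5.82, SE 0.20, limma adjusted p = 0.000783). Ccl2, its neighbour, was at 111, 187 and 58.1 FPKM in Thy1+ and 1.38, 4.26 and 1.82 in GFP+ cells, and the stromelysin Mmp3 at 711, 223 and 128 FPKM in Thy1+ and 14.0, 14.1 and 4.93 in GFP+ cells. Every Thy1+ value exceeded every GFP+ value. Lif, the cytokine that sustains mouse stem cells, fell from 8.48, 3.66 and 7.26 to 2.36, 1.83 and 4.37 FPKM, and its call was lost without any 1 of the 3 pairs. Of 10 Wnt and BMP modulators and targets, 8 fell (median -2.82). Dkk3 was at 60.8, 48.1 and 107 FPKM in Thy1+ and 5.16, 1.75 and 4.43 in GFP+ cells, whereas Bmp4 and Id2 did not pass.

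Immediate early genes differed by library as well as by gate. Of 10 tested, 8 fell (median -2.28), and 4 did so when arm and day were not a block. Fosl2, an AP-1 subunit, was at 32.5, 37.8 and 47.1 FPKM in Thy1+ and 0.855, 1.32 and 1.48 in GFP+ cells, with a clear gap. Fos was at 246, 35.8 and 163 FPKM in Thy1+ and 45.9, 2.92 and 66.5 in GFP+ cells. Egr1 was at 354, 44.0 and 234 FPKM in Thy1+ and 76.6, 4.88 and 74.3 in GFP+ cells. For Fos and Egr1 the day 8 pair was lowest in both gates, and its Thy1+ values lay below the day 14 GFP+ values.

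Hox genes, which record position along the body axis, were lower in GFP+ cells. Of 39 listed, 29 were tested, and 25 fell (median -1.77). The largest fall was at Hoxd13, the most distal limb gene, from 31.1, 13 and 10.9 to 0.845, 0.379 and 1.25 FPKM (difference -3.29, SE 0.37, limma adjusted p = 0.00335). Hoxa10 fell from 52.5, 34.2 and 36.2 to 0.901, 10.6 and 2.95, and Hoxa11 from 17.0, 11.3 and 10.9 to 0.229, 1.21 and 0.443. In the Hoxa cluster the Dppa2/4 day 8 GFP+ library held the highest GFP+ level at Hoxa7 (0.449, 6.17 and 0.907 FPKM), Hoxa9 (0.228, 10.1 and 1.65) and Hoxa10. Hoxa9 was not called without the control day 14 pair or without the Dppa2/4 day 14 pair. Among those that did not pass were Hoxa4, Hoxc13 and Hoxd1. Hoxc13 was at 0.174, 0.233 and 0.244 FPKM in Thy1+ and 1.42, 0.342 and 2.25 in GFP+ cells, with all GFP+ values above all Thy1+ values. Among genes with a mean of at least 5 FPKM, 8 Hox genes were called lower.

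**Figure D4:**
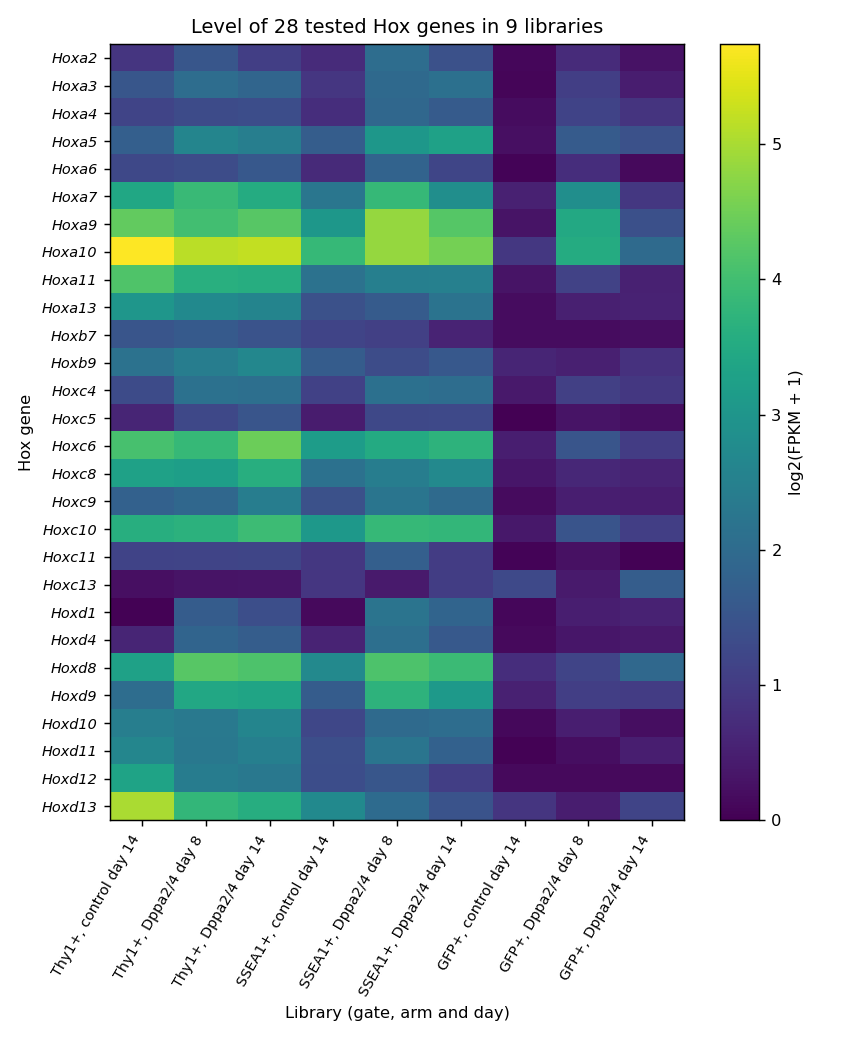
Levels of 28 of the 29 tested Hox genes as log2(FPKM + 1), 1 row per gene and 1 column per library, for Thy1+, SSEA1+ and GFP+ cells. GFP+ columns are the darkest, and the Dppa2/4 day 8 GFP+ column holds Hoxa9 and Hoxa10 at 10.1 and 10.6 FPKM.

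Imprinted genes, expressed from 1 parental allele, gave 10 lower and 3 higher of 19 tested (median -1.32), against 26.9% lower and 22.3% higher of all genes. Dlk1, a Notch-related factor, was at 33.9, 27.1 and 66.6 FPKM in Thy1+ and 2.21, 3.0 and 1.21 in GFP+ cells (difference -3.73, SE 0.44, limma adjusted p = 0.00358). Meg3, a noncoding RNA of the same locus, fell from 44.9, 38.0 and 48.1 to 11.4, 18.2 and 26.2 FPKM. The step at Meg3 was the smaller one (difference -1.26). Igf2 was at 218, 30.9 and 46.5 FPKM in Thy1+ and 5.67, 8.80 and 6.96 in GFP+ cells. H19, its neighbour, did not pass, at 2796, 459 and 285 FPKM in Thy1+ and 149, 227 and 211 in GFP+ cells, and 1 Thy1+ library stood far above the other libraries. Peg10, a retrotransposon-derived gene, rose from 4.82, 4.87 and 3.20 to 26.1, 75.8 and 48.4, Peg3 by 1.83 and Phlda2 by 2.16.

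Antigen presentation by MHC class I was lower in GFP+ cells, with 10 of 10 genes tested falling (median -2.14). B2m, the light chain, was at 477, 479 and 449.8 FPKM in Thy1+ and 19, 43.3 and 46.7 in GFP+ cells (difference -3.75, SE 0.30, limma adjusted p = 0.0017). The heavy chain gene H2-D1 was at 102, 139.8 and 229 FPKM in Thy1+ and 8.52, 7.55 and 8.76 in GFP+ cells (difference -4.01). The peptide transporter subunit Tap2 was at 46.1, 21.9 and 51.0 FPKM in Thy1+ and 2.02, 2.76 and 4.98 in GFP+ cells. The gates did not overlap for these 3. H2-K1, the other classical heavy chain tested, fell less, by 2.03, and heavy chain genes are near-identical copies whose reads the counting could split. Psmb9 is listed under more than 1 identifier in the table, so its value is uncertain.

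Interferon response genes gave 14 lower of 21 tested (median -1.51), against 26.9% of all genes. Isg15, a ubiquitin-like protein, was at 5.46, 70.3 and 36.4 FPKM in Thy1+ and 0.197, 1.73 and 1.04 in GFP+ cells (difference -3.78, SE 0.48, limma adjusted p = 0.00425). Irf7, a transcription factor of the response, was at 5.67, 36.5 and 30.9 FPKM in Thy1+ and 0.647, 1.44 and 0.889 in GFP+ cells. Usp18, which trims ISG15 from proteins, was at 0.670, 12.1 and 6.66 FPKM in Thy1+ and 0, 0.355 and 0.219 in GFP+ cells. Both Dppa2/4 Thy1+ libraries stood above the control one, by at least 6.67-fold for Isg15, 5.45-fold for Irf7 and 9.94-fold for Usp18. The median difference over the list was -0.61 in the control pair, -2.0 in the Dppa2/4 day 8 pair and -1.70 in the Dppa2/4 day 14 pair. Without the Dppa2/4 day 8 pair 7 genes were called lower, and without the Dppa2/4 day 14 pair 8.

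Epithelial genes are given with the intermediate gate beside them. Against Thy1+ cells, 14 of 23 rose in GFP+ cells and 1 fell, with a median of 1.56. Cdh1, E-cadherin, was at 8.11, 10.0 and 10.9 FPKM in Thy1+, 122, 76.1 and 125 in SSEA1+ and 127, 96.8 and 127 in GFP+ cells. Epcam, an adhesion molecule of epithelia and stem cells, was at 3.24, 16 and 19.9, then 146, 113 and 175, then 102, 105 and 95.2. Esrp1, an epithelial splicing factor, was at 0.543, 0.620 and 1.23, then 31.0, 9.78 and 26.0, then 23.7, 18.7 and 18.5. SSEA1+ cells held somewhat less Cdh1 and more Epcam than GFP+ cells in each set. They held more Esrp1 in both day 14 sets and less on Dppa2/4 day 8. None of these 3 genes was called against SSEA1+ cells, and the differences of GFP+ from Thy1+ cells were 3.46, 3.15 and 3.58. Keratins went another way. Krt19 was at 63.0, 29.2 and 78.4 FPKM in Thy1+, 183, 41.6 and 141 in SSEA1+ and 6.97, 6.81 and 10.3 in GFP+ cells, and it fell against Thy1+ by 2.59 (limma adjusted p = 0.00256). Krt8 was at 8.32, 34.0 and 61.9, then 223, 65.6 and 109, then 8.98, 23 and 13.3, and did not pass against Thy1+. Without the control day 14 pair 3 epithelial genes were called lower. Both keratins were highest in SSEA1+ cells in every set.

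Set directly against SSEA1+ cells in a fit of 9 libraries, GFP+ cells had 871 higher (5.59%) and 1978 lower genes (12.7%) of 15591 tested. This comparison shares the GFP+ libraries with the one against Thy1+ cells. Without the Dppa2/4 day 14 libraries the counts were 13 and 134, without the Dppa2/4 day 8 libraries 341 and 1183, and without the control day 14 libraries 221 and 623, so they rest on each set. In the epithelial list 5 of 23 genes were lower than in SSEA1+ cells (Krt19, Krt8, Cldn3, Marveld2 and Dsp, median of the list -0.59). Krt19 differed by -3.54 (limma adjusted p = 0.00293) and the desmosome gene Dsp by -2.38 (limma adjusted p = 0.0121). Of the pluripotency transcription factors 19 of 20 were higher than in SSEA1+ cells (median 2.02), Gbx2 being the exception, and of the effectors 9 of 20 (median 1.26).

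The fibroblast lists were also lower than in SSEA1+ cells: 26 of 31 matrix genes (median -2.01), 9 of 18 mesenchymal regulators (median -1.10) and 12 of 16 secreted factors (median -1.83). Of the Hox genes 23 of 29 (median -1.23) and of MHC class I genes 9 of 10 (median -1.43) were lower. Cell cycle genes gave 2 higher and 2 lower of 25 against SSEA1+ cells (median 0.43). The mean level of the cell cycle list was 4.89, 5.92 and 5.15 in Thy1+, 6.31, 6.52 and 5.77 in SSEA1+ and 6.46, 6.70 and 6.30 in GFP+ libraries on the log2(FPKM + 1) scale. The mean level of the pluripotency transcription factors was 1.29, 1.22 and 1.4, then 4.36, 2.59 and 3.25, then 5.72, 5.23 and 5.18. Within SSEA1+ cells that list was lowest on Dppa2/4 day 8, and the 3 Thy1+ libraries lay close to each other.

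**Figure D5:**
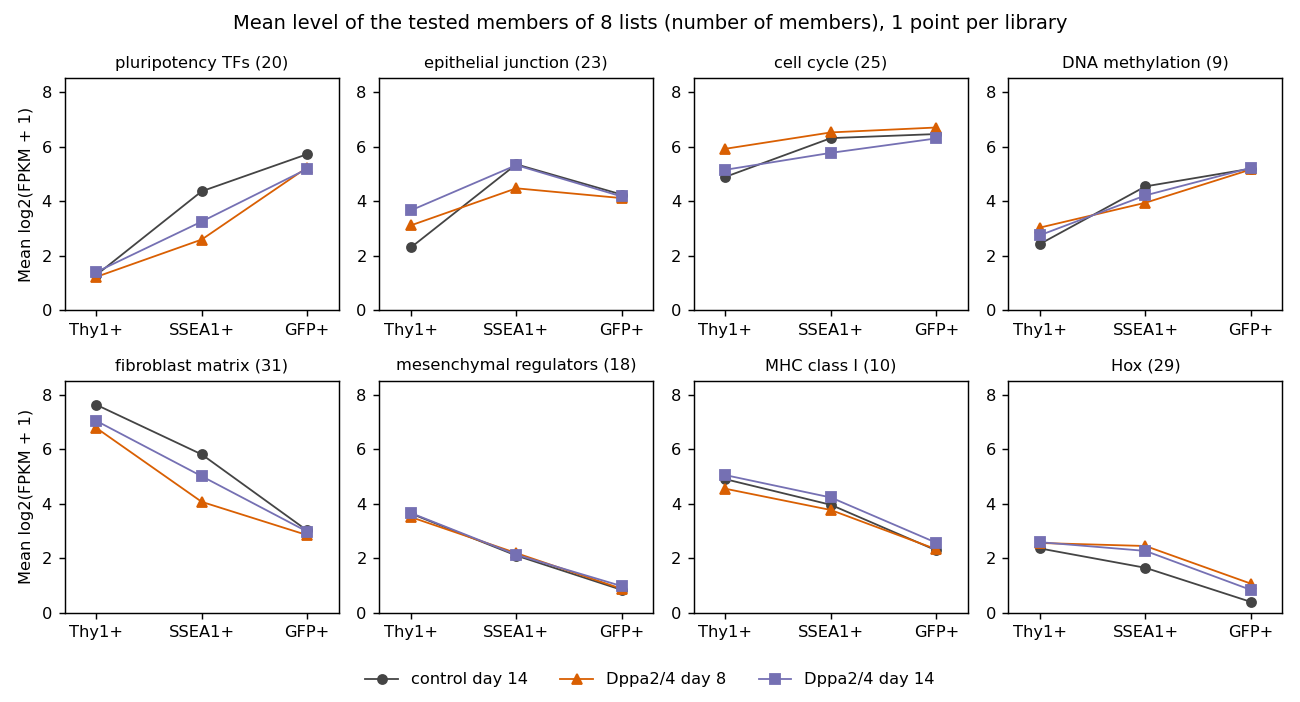
Mean log2(FPKM + 1) over the tested members of 8 lists in the Thy1+, SSEA1+ and GFP+ gates, 1 point per library and 1 line per arm and day. Pluripotency and DNA methylation lists climb from gate to gate, matrix, mesenchymal, MHC class I and Hox lists descend, and the epithelial list is highest in SSEA1+ cells (4.47 to 5.35).

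Markers of other cell types that a fibroblast culture might hold were measured as lists. For macrophages 5 of 9 genes were tested, 3 lower and 1 higher, and the summed level was 10.2 to 63.5 FPKM in Thy1+ and 13.7 to 59.8 in GFP+ libraries. Cd68, a lysosomal protein that many cells express, made up 54.1, 12.8 and 58.8 FPKM of the GFP+ sums and was the gene that rose. Ptprc, the leukocyte antigen CD45, was at most 0.155 FPKM in Thy1+ cells and was listed at 0 in both Dppa2/4 GFP+ libraries. Lyz2, a myeloid lysozyme, was at 24.2, 1.56 and 28.0 FPKM in Thy1+ and 2.91, 0.111 and 0 in GFP+ cells. In SSEA1+ cells Lyz2 was at 37.5, 0.546 and 2.06 FPKM. It fell from Thy1+ to GFP+ cells in each pair, as did the median member of the MHC class I, interferon and cytokine lists. Among Thy1+ libraries Lyz2 was lowest on Dppa2/4 day 8. The mean level of the interferon list was highest in that library, that of MHC class I lowest and that of the cytokines in between. The part of Lyz2 in those results was not tested.

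Endothelial markers (4 of 8 tested, 1 higher and 1 lower) summed to 18.4 to 22.9 FPKM in Thy1+ and 23 to 68.1 in GFP+ libraries. Most of the GFP+ sum was Pecam1, an adhesion molecule that stem cells also carry, at 0.545, 0.164 and 0.723 FPKM in Thy1+ and 48.3, 17.1 and 65.0 in GFP+ cells. The gene that fell was Tek, from 17.3, 15.7 and 5.65 to 0.940, 2.69 and 1.15 FPKM (difference -2.35, SE 0.36, limma adjusted p = 0.00673). Cdh5, which defines endothelium, was at most 0.0163 FPKM in the 6 libraries. None of the 7 keratinocyte markers passed the filter, and their sum was at most 1.38 FPKM in any of the 6 libraries. Skeletal muscle markers (1 of 7 tested) summed to at most 2.79 FPKM, and Myf5 was listed at 0 in all. Of the neural and glial markers 6 of 10 were tested. Of these 2 rose, Olig2 among them, against 22.3% of all genes, and 4 did not pass. Gfap was among those 4 and differed between the gates by 0.31 in the control pair and by -2.11 and -2.21 in the Dppa2/4 pairs. Sums of the list were 10.0 to 23.4 FPKM in Thy1+ and 23.5 to 26.9 in GFP+ libraries.

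Trophoblast markers (5 of 9 tested) gave 2 that rose, Tfap2c from 1.68, 0.698 and 0.961 to 33.1, 48.7 and 28.7 FPKM and Eomes from 0.120, 0.258 and 0.531 to 4.56, 3.80 and 4.32, while Cdx2, a defining factor of the lineage, was at most 0.0450 FPKM in the 6 libraries. The other 3 tested did not pass. Krt7 was among them and differed between the gates by 1.33 in the control pair and by -2.33 and -3.02 in the Dppa2/4 pairs. Sums of the trophoblast markers were 7.07 to 47.6 FPKM in Thy1+ and 40.3 to 58.3 in GFP+ libraries. Endoderm markers (1 of 7 tested) summed to 1.07 to 3.08 and 1.07 to 5.41 FPKM. Adipocyte markers (2 of 5 tested, both lower) summed to 11.7 to 44.2 FPKM in Thy1+ and 0.924 to 2.51 in GFP+ libraries, with Plin1 listed at 0 in all and Fabp4 at 36.2, 4.14 and 19.3 in Thy1+ cells. Cartilage and bone markers (2 of 6 tested, 1 lower) summed to 1.69 to 3.84 and 0.799 to 3.27 FPKM, with Ibsp listed at 0.

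Apart from list members, the lowest genes by the naming rule were Prelp, Il1rn, Cav1 and Tm4sf1, and 3 genes listed at 0 in the 3 GFP+ libraries of the fit. Prelp, a matrix leucine-rich repeat protein, was at 437, 85.3 and 212 FPKM in Thy1+ and 3.07, 0.942 and 2.03 in GFP+ cells. Il1rn, the interleukin 1 receptor antagonist, was at 479, 282 and 237 FPKM in Thy1+ and 2.68, 4.54 and 4.34 in GFP+ cells. Tm4sf1, a tetraspanin-like membrane protein, was at 484, 298 and 325 FPKM in Thy1+ and 4.86, 5.18 and 5.69 in GFP+ cells. They fell by 6.12, 6.06 and 5.86, and the gates did not overlap. The 3 genes listed at 0 were AC158299.1, a miRNA gene (283, 167 and 396 FPKM in Thy1+ cells), Gm17283 (158, 92.8 and 221) and Gm17607 (166, 117 and 46.4). In Thy1+ libraries outside the fit, AC158299.1 was listed at 0 on control day 2 and Gm17283 on control days 2 and 4. Gm17607 was listed at 0 there on control day 8 and Dppa2/4 day 2. Gm17283 was at 320 FPKM in control day 14 SSEA1+ cells, above every Thy1+ value of the fit, so these 3 genes are uncertain. Of the day 11 GFP+ libraries, Gm17283 was at 109 FPKM in the Dppa2/4 arm and Gm17607 at 44.0 in the control arm. Among the highest, U1, a small nuclear RNA gene with many near-identical copies, was at 10.5, 17.6 and 0.433 FPKM in Thy1+ and 715, 765 and 1162 in GFP+ cells and is uncertain for that reason.

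Whether the gate difference itself differed between the arms could be asked with 1 control pair against 2 Dppa2/4 pairs, and this leaves 1 residual degree of freedom before the spread is pooled across genes. In the fit over all 14991 genes tested, 3 genes (0.02%) had a larger and 2 (0.0133%) a smaller difference in the Dppa2/4 arm, by limma. An unadjusted limma p of 0.05 was passed by 850 of the 14991, and a share of 0.05 would pass it if no gene differed. The count of called genes depended on the genes admitted. It was 36 and 62 among the 14187 genes above 0 in all 6 libraries. It was 0 and 0 among the 10404 genes with a mean of at least 5 FPKM. Of these 10404, 420 passed an unadjusted limma p of 0.05. Of the genes called among the 14187 above 0 in all libraries, 12 were listed genes. They were Dppa2, Dppa4, Oasl2, Krt7, H19, Igf2, Sgce, Tex19.1, Des, Cldn4, Cldn7 and Gfap, chosen here because that fit called them. Dppa2 and Dppa4 only check the labels. The 12 are given as single genes and not as a result about the lists. Krt7, a keratin, differed between the gates by 1.33 in the control pair and by -2.33 and -3.02 in the Dppa2/4 pairs. H19 differed by -4.22, -1.01 and -0.43. Oasl2, an interferon-induced gene, differed by -0.43, -3.77 and -3.73.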

How the data were processed

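Per the submitters' processing notes, reads of polyA RNA from sorted cells were aligned with TopHat2 to mm10 and quantified with Cuffdiff. The authors deposited the result as 1 annotated table of FPKM values. Tool versions, annotation, strand setting and normalization are not given in the sources used here. Of 33 value columns, 30 were matched to samples by name and 3 matched no sample and were not used.

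Values were tested as log2(FPKM + 1) with limma 3.58.1 (R 4.3.3), with trend and with arm and day as a block, on genes at 1 FPKM or more in at least 2 of the 6 libraries. Benjamini-Hochberg adjustment ran over all genes tested, at 0.05. Libraries of a pair deviated together from their gate means (correlation 0.17 in each pair). The interaction of gate with arm and the comparison with SSEA1+ cells used the same scale. Depth was implied from the FPKM that 1 fragment is worth in genes with a single transcript, and it limits the precision of low and short genes. In a simulation of the main comparison on 14991 genes, 0% of 200 genes changed by 1 and 94% of 200 changed by 2 on the log2 scale were recovered, with 4 and 16 false calls. Coordinates are those of GENCODE vM21 on GRCm38, matched by gene identifier.

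The members and lists were chosen with earlier results of these data known. Named by rule were, among genes past the threshold with the same sign in 3 of 3 pairs, the 3 with the largest difference per list and the 8 highest and 8 lowest overall with a mean of at least 10 FPKM in the higher gate. The rule also named Thy1, Fut9, the OSKM genes, Nanog, Esrrb, Zfp42, Dppa2, Dppa4, Cdkn2a and Trp53. Other genes were chosen after their values were seen. Alternatives were another pseudocount, other filters, quantile normalization, no trend, no block, 9 libraries, protein-coding genes alone and each pair left out. The restriction to genes above 0 in all 6 libraries was chosen after seeing the data. Some genes of the lists are counted but not reported here by name.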

Additional observations from a re-analysis of the deposited data

Results flagged for a closer look

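In 5 genes the difference between GFP+ and Thy1+ cells was itself different between the arms by the test of gate with arm (limma adjusted p under 0.05), and each turned on libraries in which the gene was listed at 0. Eef1a1 had a gate difference lower by 13.34 in the Dppa2/4 arm (a value of -13.34). It was listed at 0 in the control Thy1+ library and in none of the other 5. Gm13340 (13.74), Gm13341 (13.71) and Gm13339 (11.76), unprocessed pseudogenes that lie next to each other on chromosome 2, had larger differences in the Dppa2/4 arm. Gm13340 was at 11413, 0 and 0 FPKM in Thy1+ and 12531, 11971 and 18956 in GFP+ cells, and Gm13341 and Gm13339 were likewise listed at 0 in both Dppa2/4 Thy1+ libraries and in no other of the 6. AL713994.1, a short miRNA gene, had a difference of -10.04, with 0, 61.2 and 48.5 FPKM in Thy1+ and 17.9, 0 and 0 in GFP+ cells. None of the 5 was above 0 in all 6 libraries.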

How the results depend on the processing

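Of 466 listed or named genes, 363 were called in the comparison of GFP+ with Thy1+ cells, 296 of these were called the same way under every alternative that gave a value for them, and 0 changed direction. A gene that a filter removed gives no value and is not counted as lost, so counts at a mean of at least 5 FPKM fall for that reason. Leaving out 1 pair at a time gave 2165 to 3267 higher and 3085 to 3685 lower genes, with the lowest number of higher genes without the control day 14 pair. Leaving out a pair gave differences of -1.73 to 1.77 for Dppa2 and -1.41 to 2.31 for Dppa4. Without the block on arm and day, 2946 genes were higher and 3734 lower, and 23 listed or named genes lost their call. Without a filter on low values 44 lost theirs. For the gate difference by arm, the larger and smaller counts were 15 and 10 with a pseudocount of 0.1, 6 and 4 with quantile normalization, 36 and 62 among genes above 0 in all 6 libraries, and 0 and 0 among genes with a mean of at least 5 FPKM, against 3 and 2 in the main result. Against SSEA1+ cells, leaving out the libraries of 1 arm and day gave 13 to 341 higher and 134 to 1183 lower genes, with fewest without Dppa2/4 day 14. The cause of these shifts was not tested. Among lists, interferon genes called lower numbered 14 in the main result, 9 without a filter and 7 at a mean of at least 5 FPKM, and MHC class I genes 10 and, at that mean, 6. The simulated data held 200 changed genes of 14991, far fewer than were called here, so the 0% recovered at a log2 change of 1 does not carry over to these data. Genes that did not pass are not shown to be alike.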

Other observations

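The genes in this section were chosen after their values were seen, so counts describe these genes alone. The Myc family split by gate. Mycn, the member that dominates in embryonic stem cells, was at 1.15, 0.424 and 0.301 FPKM in Thy1+, 15.0, 3.61 and 4.81 in SSEA1+ and 42.3, 46.8 and 23 in GFP+ cells (difference 4.53, SE 0.26, limma adjusted p = 0.000996), whereas Myc, a factor of the induced cassette, fell. Mycl rose by 1.17 (limma adjusted p = 0.047). In GFP+ cells the larger of Mycn and Myc exceeded the other by 1.06 to 2.05-fold, while in Thy1+ cells Myc exceeded Mycn by 79.1 to 186-fold. Kit, the stem cell factor receptor, rose from 0.335, 1.47 and 0.866 to 40.5, 20.9 and 52.4 FPKM, and the HMG-box gene Sox15 from 0.559, 0.376 and 3.07 to 48.6, 29.4 and 34.7. Igfbp2 rose from 14.7, 3.69 and 31.7 to 566, 197 and 331 FPKM, although Igfbp3, Igfbp4, Igfbp6 and Igfbp7 of the same family all fell.

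All 5 genes tested that build the coat of caveolae fell, with Cav1 at 394, 317 and 630.4 FPKM in Thy1+ and 4.90, 4.87 and 9.84 in GFP+ cells. All 13 genes looked at of the annexin and S100 families fell, with the largest difference at S100a4 (3622, 1461 and 1225 FPKM against 62.5, 41.9 and 27.0, difference -5.46) and the smallest at Anxa7 (-0.83). Vim, the intermediate filament vimentin, was at 7676, 3840.4 and 6488 FPKM in Thy1+, 1643, 1173 and 1492 in SSEA1+ and 202, 197 and 181 in GFP+ cells. Among lamins, Lmna fell by 3.14 while Lmnb1 and Lmnb2 rose, Lmnb2 by 1.05 (limma adjusted p = 0.0199). In SSEA1+ cells the level of Cav1 (63.6, 30.0 and 114 FPKM) and of S100a4 (755, 109.8 and 173) lay between those of the other gates in each set.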
